A study of Homo sapiens with 4 samples.

Results

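AP-2 transcription factors and 4 further genes used as markers of amnion-type epithelium were followed through 4 days of differentiation of H1, a long-established human embryonic stem cell line, towards blood-forming cells. The 7 genes were chosen by name: TFAP2A (Entrez gene ID 7020), TFAP2B (7021), TFAP2C (7022), VTCN1 (79679), GABRP (2568), CGA (1081) and TP63 (8626). All 7 were listed in at least 1 of the 4 libraries, out of 19390 genes listed in any. The cells were wild type throughout. Day 0 was the undifferentiated culture. The day 2 cells had been given 40 ng/ml activin A and 50 ng/ml BMP4 together. The day 3 and day 4 cells had then been given 40 ng/ml VEGF and 50 ng/ml bFGF together. Custom mTeSR1 was the medium of both steps. Each day is 1 library of a whole culture, so the differences below have no replicate check. They come without p-values, and every interval covers counting error only. A change in the number of cells that carry a transcript and a change in its amount per cell cannot be told apart in such libraries.

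AP-2 factors are a small family of transcription factors that bind GC-rich DNA as dimers through a helix-span-helix domain. TFAP2A and TFAP2B act in surface ectoderm and neural crest, and TFAP2C in trophoblast and in the precursors of germ cells. The amnion is the thin epithelium that encloses the fetus and forms next to the epiblast. Pluripotent cells given BMP can take up amnion-type and trophoblast-type expression, in which AP-2 factors are among the early genes. VTCN1 encodes a B7-type immune checkpoint ligand, GABRP the pi subunit of the GABA-A receptor, CGA the alpha subunit shared by chorionic gonadotropin and the pituitary glycoprotein hormones, and TP63 a transcription factor that directs stratified epithelia.

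The upstream sequence of TFAP2A, VTCN1, GABRP and CGA is shown. GABRP and VTCN1 followed courses unlike that of TFAP2A, and CGA stayed near the limit of detection. The RefSeq promoter table of GRCh38.p14 held 6 of the 7 members, all but TFAP2C. The windows of TFAP2B and TP63 are not printed. The deposited files were made on hg19, and no position was carried between the builds. Each sequence below is the 250 bases before an annotated start, 5′ to 3′ on the strand of the gene, and capitals mark matches to the motifs searched. TFAP2A had 2 annotated starts, the upper at chr6:10419660-10419909 (minus strand) and the lower at chr6:10412392-10412641 (minus strand). The VTCN1 window is chr1:117210928-117211177 (minus strand), the GABRP window chr5:170783475-170783724 (plus strand) and the CGA window chr6:87095107-87095356 (minus strand).
TFAP2A upper start: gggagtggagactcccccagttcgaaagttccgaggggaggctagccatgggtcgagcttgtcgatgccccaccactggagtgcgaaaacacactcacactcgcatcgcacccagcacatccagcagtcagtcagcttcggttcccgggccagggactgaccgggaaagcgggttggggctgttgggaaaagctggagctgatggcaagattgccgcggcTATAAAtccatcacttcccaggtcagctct
TFAP2A lower start: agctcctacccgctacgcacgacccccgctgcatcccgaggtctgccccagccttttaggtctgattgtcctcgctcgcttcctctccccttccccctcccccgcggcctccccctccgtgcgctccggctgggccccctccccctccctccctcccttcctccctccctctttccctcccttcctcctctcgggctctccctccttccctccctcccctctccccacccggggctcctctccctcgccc
VTCN1: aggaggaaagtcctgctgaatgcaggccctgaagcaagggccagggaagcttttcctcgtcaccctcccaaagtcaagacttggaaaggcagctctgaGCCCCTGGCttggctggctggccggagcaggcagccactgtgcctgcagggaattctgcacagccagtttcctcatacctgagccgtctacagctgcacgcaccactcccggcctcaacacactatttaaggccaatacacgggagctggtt
GABRP: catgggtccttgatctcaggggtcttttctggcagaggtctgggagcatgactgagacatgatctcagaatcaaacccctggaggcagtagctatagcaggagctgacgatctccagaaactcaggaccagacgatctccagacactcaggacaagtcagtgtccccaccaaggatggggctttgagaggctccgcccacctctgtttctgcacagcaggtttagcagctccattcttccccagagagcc
CGA: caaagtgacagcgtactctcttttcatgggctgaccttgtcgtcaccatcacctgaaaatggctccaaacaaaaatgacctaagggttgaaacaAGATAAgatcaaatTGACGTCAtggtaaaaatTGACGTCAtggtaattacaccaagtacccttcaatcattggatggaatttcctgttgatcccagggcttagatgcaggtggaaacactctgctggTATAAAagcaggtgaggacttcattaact

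The motifs searched on both strands were GCCNNNGGC, a form of the AP-2 site that reads the same on either strand, AGATAA for GATA factors, TGACGTCA, the cAMP response element, TATAAA, and GGCGCC, a GC box bound by SMAD proteins. None of these motifs overlapped another in the printed windows. Among 35116 windows of this length in the table, 19.8% held the AP-2 form, 9.17% AGATAA, 1.65% TGACGTCA, 10.7% TATAAA and 16.4% GGCGCC. The VTCN1 window held 1 AP-2 form, GCCCCTGGC, from 152 to 144 bases before the start. The CGA window held 2 copies of TGACGTCA, from 142 to 135 and from 124 to 117 bases before the start. It also held AGATAA and a TATAAA that began 29 bases before the start. This tandem pair is the well-known cAMP-responsive part of the CGA promoter. The upper TFAP2A start had TATAAA from 30 to 25 bases before it. The lower TFAP2A start and the GABRP window held none of the 5. The lower TFAP2A window was 71.2% G or C, against a median of 58% over all windows, and the GABRP window 54.8%.

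Depth was even between the libraries, at 5.04 to 5.49 M expected counts a library with 17383 to 17664 genes listed. A single count was worth 0.182 to 0.196 CPM, the unit of counts scaled to a common library size. A gene absent from a library was taken as 0, which allows up to 3 counts, or 0.545 to 0.588 CPM. The 10 pluripotency genes summed to 10908 CPM at day 0 and 2198 CPM at day 4. All 10 had at least 1 CPM at day 0. The 10 primitive streak genes summed to 20.2, 3085, 461 and 122 CPM at days 0, 2, 3 and 4. The 12 endothelial genes summed to 257, 439, 1187 and 1799 CPM, the 10 blood cell genes to 30.1, 27.1, 24.5 and 52.5 CPM, and the 11 endoderm genes to 10.9, 406, 376 and 472 CPM. Single genes carried much of some of these sums. KDR held 209 CPM of the endothelial sum at day 0 and 354 CPM at day 2, and SPN 20.4 CPM of the blood cell sum at day 0. CER1 held 2287 CPM of the streak sum at day 2, and LIN28A 1328 CPM of the pluripotency sum at day 4. KDR, SPN and LIN28A were named after their values were seen. The part of other cell types in the results below was not tested.

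Calls of higher or lower needed a gap of 2 or more in log2(CPM + 1), 4-fold on that scale, and 1 CPM or more in 1 of the libraries compared. Shares given for all genes are of those that reached this 1 CPM. A count out of a whole list also includes genes that did not. Folds given for single genes are plain ratios of CPM with exact 95% counting intervals.

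TFAP2A and TFAP2C made up nearly all of the AP-2 transcript and shared a course: low at day 0, high at days 2 and 3, and lower again at day 4. TFAP2A measured 0.388, 67.7, 74.8 and 35.3 CPM at days 0, 2, 3 and 4, from 2, 345, 387 and 194 counts. It was 174-fold higher at day 2 than at day 0 (95% counting interval 47.9 to 1447), with the width of the interval set by the 2 counts at day 0. Between days 2 and 3 it did not differ beyond counting error, with a ratio of 1.11 (0.953 to 1.28). At day 4 it was 2.12-fold lower than at day 3 (1.78 to 2.53), and still 90.9-fold above day 0 (24.8 to 756).

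TFAP2C measured 7.18, 76.7, 117 and 44.2 CPM, from 37, 391, 605 and 243 counts. In contrast to TFAP2A it was well above the counting floor in undifferentiated cells. It was 10.7-fold higher at day 2 than at day 0 (7.62 to 15.4), a further 1.52-fold higher at day 3 (1.34 to 1.74), and 2.65-fold lower at day 4 than at day 3 (2.28 to 3.09). Its day 4 level was 6.16-fold above day 0 (4.34 to 8.95). On the deposited FPKM, which is per transcript length, TFAP2C stood above TFAP2A in every library. The ratio of the 2 genes was 19.5 at day 0 (5.02 to 167), 1.32 at day 2 (1.14 to 1.53), 1.89 at day 3 (1.66 to 2.15) and 1.51 at day 4 (1.24 to 1.83). The excess of TFAP2C was thus widest before differentiation, when TFAP2A was almost absent. The interval of the ratio at day 4 overlapped those at day 2 and at day 3, while those at days 2 and 3 did not overlap.

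TFAP2B had 0, 0, 6 and 2 counts at days 0, 2, 3 and 4, or 1.16 CPM at its highest. Its level at day 3 was 1.97-fold above a floor of 3 counts at day 2, with the error of the 6 counts left out. Days 3 and 4 did not differ beyond counting error. Per length, TFAP2A stood 106-fold above TFAP2B at day 3 (48.3 to 291). The remaining family members were near the floor as well: TFAP2D was listed in no library, and TFAP2E had 1, 7, 1 and 3 counts. The antisense gene TFAP2A-AS1, which overlaps TFAP2A, had 0, 1, 6 and 2 counts. The labels do not say that strand was kept, so reads from sequence that both genes share may not be told apart. Whether their exons overlap was not examined.

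**Figure D1:**
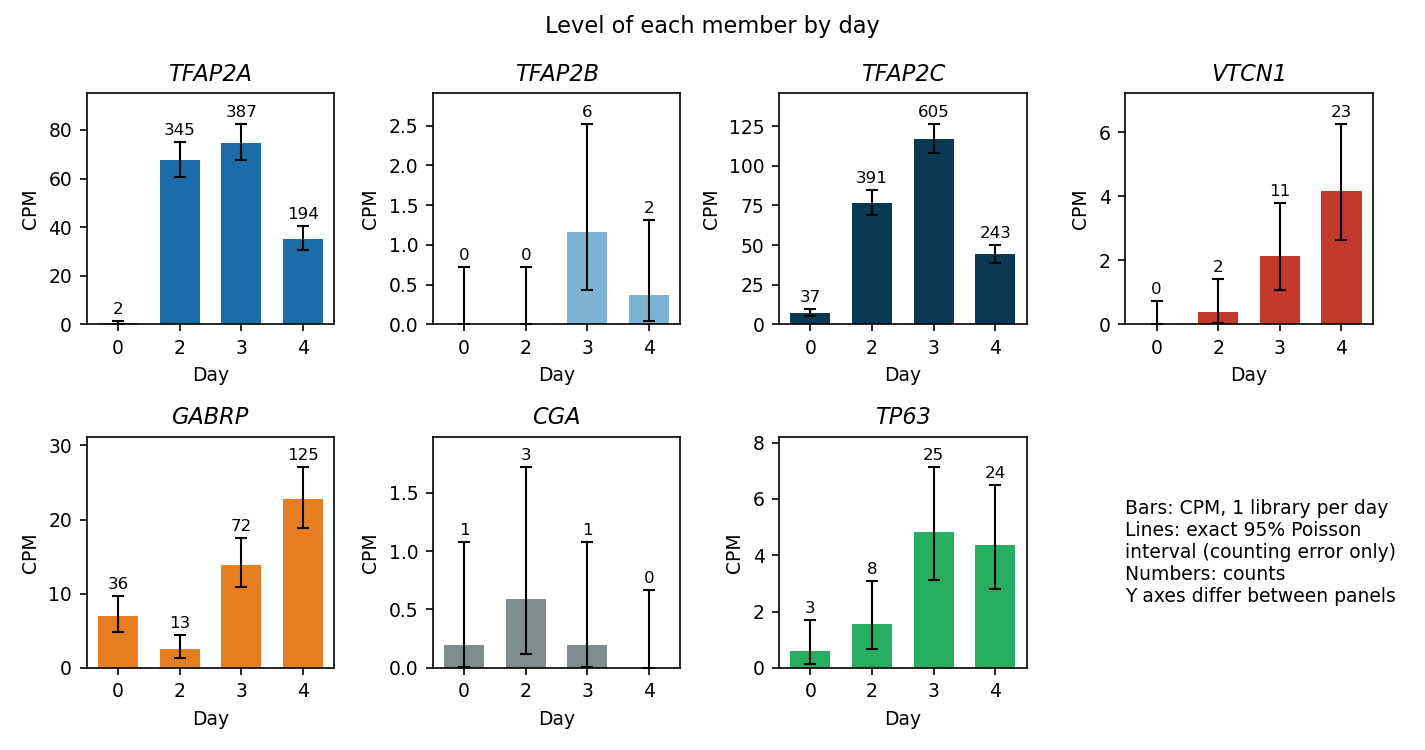
Level of each of the 7 genes in CPM (y axis, its range differing between panels) by day (x axis). Bars are the value of 1 library, lines the exact 95% Poisson interval, and the number over each bar its count. TFAP2A and TFAP2C were highest at day 3, at 74.8 and 117 CPM, while GABRP and VTCN1 were highest at day 4, at 22.7 and 4.18 CPM.

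GABRP and VTCN1 were highest in the last library, when both AP-2 factors were lower. GABRP measured 6.98, 2.55, 13.9 and 22.7 CPM at days 0, 2, 3 and 4, from 36, 13, 72 and 125 counts. It was 2.74-fold lower at day 2 than at day 0 (1.42 to 5.63), the reverse of TFAP2A and TFAP2C over the same step. It was then 5.46-fold higher at day 3 than at day 2 (3.0 to 10.7) and 1.63-fold higher again at day 4 (1.21 to 2.21). The undifferentiated culture thus held more GABRP transcript than the culture after activin A and BMP4, and less than the day 4 culture (3.25-fold, 2.23 to 4.86). Per length, GABRP was 0.0381 of TFAP2A at day 2 (0.0201 to 0.0661), 0.197 at day 3 (0.151 to 0.253) and 0.677 at day 4 (0.536 to 0.852).

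VTCN1 had 0, 2, 11 and 23 counts, or 0, 0.392, 2.13 and 4.18 CPM. It was 5.42-fold higher at day 3 than at day 2 (1.18 to 50.3) and 10.7-fold higher at day 4 than at day 2 (2.63 to 93.2). The step from day 3 to day 4, with a ratio of 1.97 (0.921 to 4.47), was within counting error. Against day 0, where it was not listed, the day 4 level was 7.19-fold above a floor of 3 counts. This value leaves out the counting error at day 4. The GABRP to VTCN1 ratio per length was 4.53 at day 3 (2.39 to 9.48) and 3.94 at day 4 (2.51 to 6.44).

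TP63 had 3, 8, 25 and 24 counts, or 0.582, 1.57, 4.83 and 4.36 CPM. It was 3.08-fold higher at day 3 than at day 2 (1.35 to 7.90) and 7.50-fold higher at day 4 than at day 0 (2.28 to 38.9). The step from day 0 to day 2, with a ratio of 2.70 (0.647 to 15.8), and that from day 3 to day 4 were within counting error. TP73, a related transcription factor gene, stayed between 0.966 and 2.54 CPM.

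CGA was near the floor in every library, with 1, 3, 1 and 0 counts at days 0, 2, 3 and 4. Neither day 2 with day 0 nor day 3 with day 2 differed beyond counting error. No difference in CGA was thus detected at this depth. Its highest value, 0.588 CPM at day 2, had an upper limit of 1.72 CPM.

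**Figure D2:**
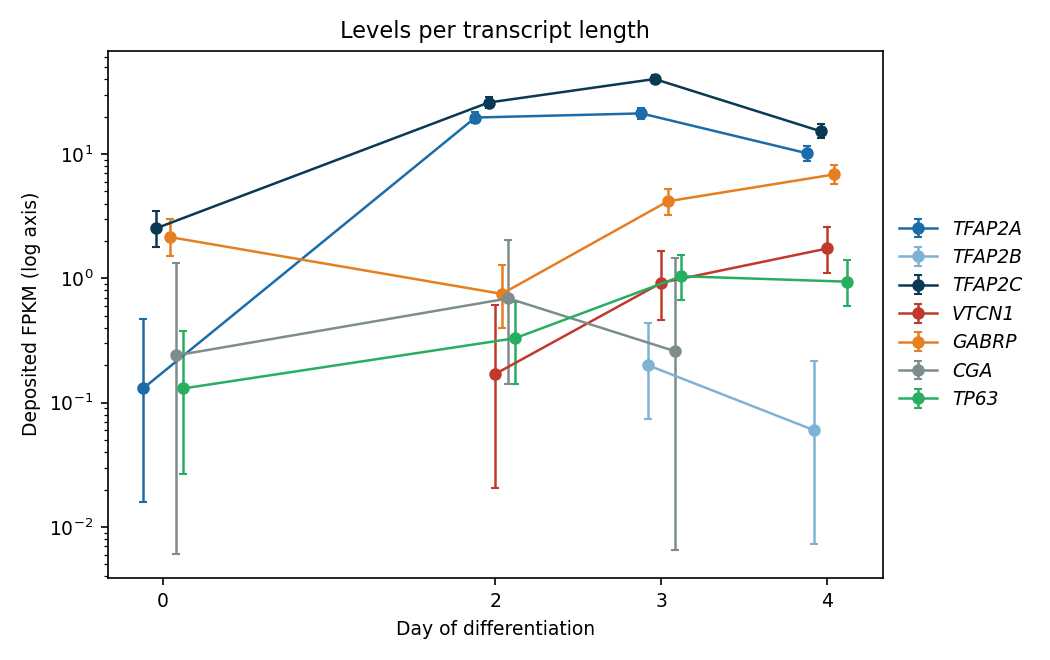
Deposited FPKM (y axis, log scale) of the 7 genes by day (x axis), with points for single libraries, lines joining them and bars for the counting interval. A gene listed at 0 has no point. TFAP2C had the highest value in each library, from 2.53 FPKM at day 0 to 40.1 FPKM at day 3. At day 0 it did not differ from GABRP beyond counting error. GABRP came within 1.48-fold of TFAP2A at day 4.

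The order of the members per length changed with the day. At day 0 TFAP2C (2.53 FPKM) and GABRP (2.15 FPKM) led and did not differ beyond counting error. CGA, TFAP2A and TP63 followed at 0.24 FPKM or less and could not be ordered. At day 2 TFAP2C (25.9 FPKM) and TFAP2A (19.7 FPKM) stood apart from each other and from GABRP, 26.2-fold below TFAP2A. GABRP, CGA, TP63 and VTCN1, at 0.17 to 0.75 FPKM, did not differ between neighbours. At day 3 the order was TFAP2C (40.1 FPKM), TFAP2A (21.2 FPKM), GABRP (4.17 FPKM) and TP63 (1.04 FPKM), each beyond counting error below the one before. TP63 and VTCN1 (0.92 FPKM) did not differ. At day 4 TFAP2C (15.2 FPKM), TFAP2A (10.1 FPKM), GABRP (6.85 FPKM) and VTCN1 (1.74 FPKM) were in turn each beyond counting error below the one before, while VTCN1 and TP63 (0.94 FPKM) did not differ. At its peak TFAP2C lay above 90.2% of the genes listed in that library. GABRP at day 4 lay above 53.9%, VTCN1 above 30.5% and TP63 above 23.1%.

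Across the activin A and BMP4 step, from day 0 to day 2, 2 of the 7 members were called higher, TFAP2A and TFAP2C, beside 4.63% of 15379 genes. None was called lower, beside 1.93%. Only 4 members reached 1 CPM in either library. At a 2-fold threshold on the same scale GABRP was also called, as lower, beside 8.81% of genes. The difference in log2(CPM + 1) was 5.63 for TFAP2A and 3.25 for TFAP2C, above 99.7% and 98.3% of genes. The median over all genes was -0.000898.

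From day 2 to day 3, the first day of VEGF and bFGF, GABRP alone was called higher, beside 1.32% of 15286 genes. None was called lower, beside 0.406%. The GABRP difference of 2.07 in log2(CPM + 1) lay just above the threshold, and the call ended with a pseudocount of 5 CPM and on the deposited FPKM. At 2-fold, TFAP2B, VTCN1 and TP63 joined it, beside 5.82% of genes, and none was lower, beside 3.51%. Here 6 members reached 1 CPM, and 6 again from day 3 to day 4. From day 3 to day 4 no member was called at 4-fold in either direction, beside 0.377% of 15367 genes higher and 0.228% lower. At 2-fold TFAP2A and TFAP2C were called lower, beside 4.25%, with differences of -1.06 and -1.38. Those values were under all but 3.68% and 1.43% of genes. Over the same day GABRP differed by 0.67 and VTCN1 by 0.73, above 92.8% and 94.1% of genes.

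Over both days of VEGF and bFGF, day 4 with day 2, GABRP was called higher, beside 2.32% of 15406 genes, and none was called lower, beside 1.4%. The call ended with a pseudocount of 5 CPM. At 2-fold VTCN1 and TP63 joined GABRP, beside 8.18% of genes, and none was lower, beside 7.6%. In this comparison, and in the next, 5 members reached 1 CPM. Over the whole course, day 4 with day 0, 3 of the 7 were called higher, TFAP2A, TFAP2C and VTCN1, beside 6.27% of 15652 genes. The VTCN1 call ended with a pseudocount of 5 CPM, with a minimum of 5 CPM and on the deposited FPKM. None was called lower, beside 3.44%. GABRP (1.57) and TP63 (1.76) stayed under the 4-fold threshold and passed at 2-fold, beside 16.1% of genes. These 5 comparisons share libraries and are not independent of each other.

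**Figure D3:**
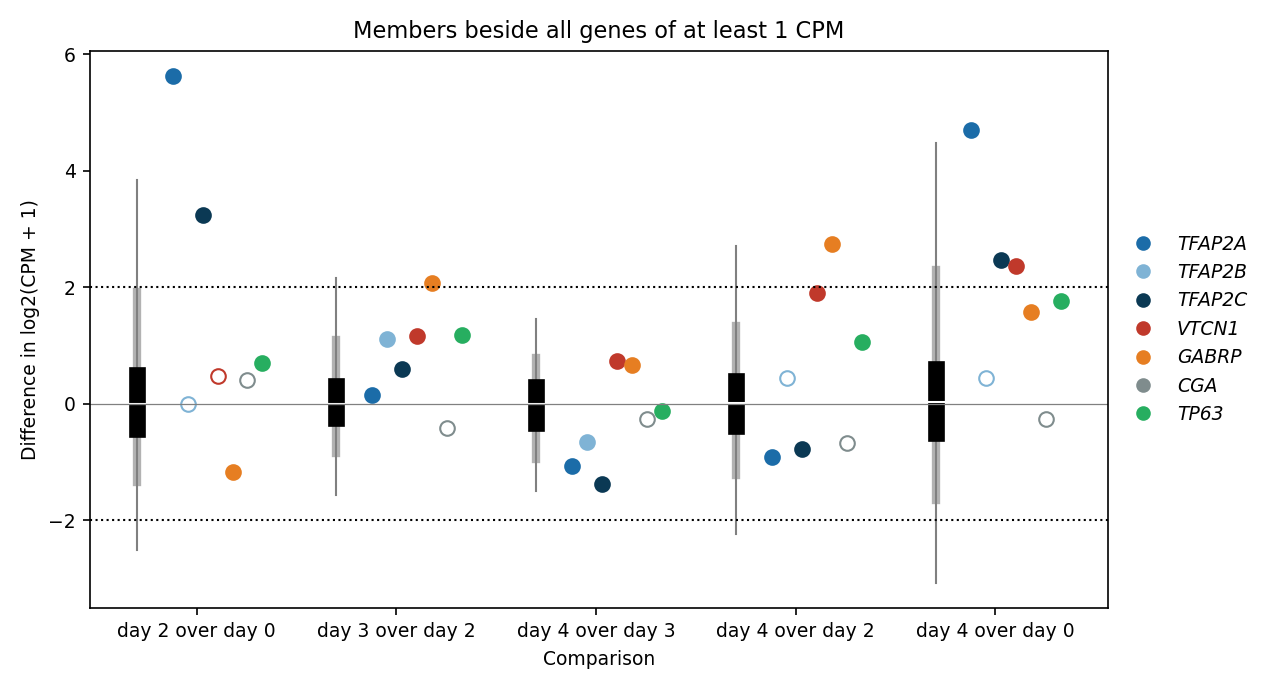
Difference in log2(CPM + 1) (y axis) of each member in 5 comparisons (x axis), beside all genes that reached 1 CPM in either of the libraries compared. Black bars span the middle 50% of all genes, grey bars 5 to 95% and thin lines 1 to 99%. Open points are members under 1 CPM in both libraries, and dotted lines mark the 4-fold threshold. TFAP2A, at 5.63, lies above the thin line at day 2 over day 0, and the AP-2 factors and the pair of GABRP and VTCN1 lie on opposite sides of 0 at day 4 over day 3.

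Among genes of at least 5 CPM in any library, those nearest in course were found by the root mean square difference in log2(CPM + 1) over the 4 libraries, after subtracting each gene's own mean. TFAP2A lay nearest to DLC1 (0.13), a GTPase-activating protein gene, HPGD (0.23), which encodes the enzyme that degrades prostaglandins, and DIO3 (0.26), which encodes the deiodinase that inactivates thyroid hormone. DIO3 measured 0.194, 38.3, 40.2 and 21.4 CPM. TFAP2C lay nearest to MID2 (0.09), a ubiquitin ligase gene, and TMEM229A (0.15) was among its 3 nearest genes. TFAP2A ranked 988 of 13199 genes by likeness to TFAP2C, at 0.96, and the day 0 levels of the pair were 0.388 CPM for TFAP2A and 7.18 CPM for TFAP2C. GABRP lay nearest to DAAM2 (0.09), a formin gene, RASIP1 (0.12), which is needed to form the lumen of vessels, and GNG2 (0.17), a G protein subunit gene. RASIP1 measured 7.56, 2.94, 12.4 and 24.4 CPM. These likenesses rest on 4 libraries and carry no counting interval. GABRP itself had 13 counts at day 2 (1.36 to 4.36 CPM), so the order of its nearest genes is uncertain. VTCN1, TP63, TFAP2B and CGA did not reach 5 CPM and were not compared.

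GABA-A receptors, to which the GABRP subunit belongs, are pentameric chloride channels opened by the transmitter GABA. Of 18 other subunit genes, 8 reached 1 CPM in either library for day 4 with day 2, with a median of -0.66 beside 0.02 over all genes. Of these, 2 were called lower and none higher, beside 1.4% and 2.32% of all genes. GABRB2 was highest at day 2, at 1.16, 17.7, 4.06 and 1.45 CPM. GABRE, named after its values were seen, was the 1 other subunit called higher at 2-fold over this step, at 11.6 CPM at day 4 against 5.30 at day 2 (2.20-fold, 1.38 to 3.58).

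Of the B7 genes, VTCN1 at 1.74 FPKM on day 4 stood below CD276 (69.1 FPKM) and HHLA2 (2.07 FPKM) and above the others by value, with no interval computed for these ratios. CD276, a B7 relative expressed in many tissues, was named after its values were seen. ICOSLG, the ligand of the T cell costimulator ICOS, went the other way from VTCN1, at 10.9, 9.42, 4.25 and 2.18 CPM, 4.32-fold lower at day 4 than at day 2 (2.26 to 8.93). HHLA2 went from 17.1 CPM at day 0 to 5.63 CPM at day 4, and CD274 had at most 5 counts. Of the 9 other B7 genes none was called at 4-fold from day 2 to day 4, beside 2.32% of all genes higher and 1.4% lower.

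Among glycoprotein hormone genes, the beta subunits that pair with CGA were almost absent: CGB3, CGB5, CGB8, FSHB and TSHB were listed in no library, CGB7 had at most 2 counts and LHB at most 1. CGB genes are near-identical copies whose reads cannot be assigned with certainty. The alpha-type subunit gene GPHA2 had 5 counts at day 0 and none later, and GPHB5 was not listed. FSHR, which encodes the receptor of follicle-stimulating hormone, was the exception in this list, at 0, 8.83, 24.5 and 6.18 CPM from 0, 45, 127 and 34 counts. Day 2 stood 15.2-fold above a floor of 3 counts at day 0, a value without an interval. Like TFAP2A and TFAP2C it was highest at day 3. LHCGR and TSHR had at most 2 counts.

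The genes for AP-2 cofactors and repressors held few calls. Of 10, none was called at 4-fold from day 0 to day 2, beside 4.63% of all genes higher and 1.93% lower. The median was 0.24. None was called from day 2 to day 4 either, beside 2.32% and 1.4%, with a median of -0.06. From day 0 to day 4, 1 was called higher, CITED2, beside 6.27%, and none lower, beside 3.44%. CITED2, a coactivator that binds AP-2 and the acetyltransferases EP300 and CREBBP, went from 59.9 CPM at day 0 to 205, 305 and 266 CPM. It was 3.42-fold higher at day 2 than at day 0 (3.01 to 3.90). KCTD15, a repressor of AP-2 activity, measured 46.7, 72.8, 78.7 and 69.8 CPM, and the related KCTD1 10.7, 22.0, 15.7 and 18.9 CPM. EP300 was 1.76-fold lower at day 4 than at day 2 (1.62 to 1.91).

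**Figure D4:**
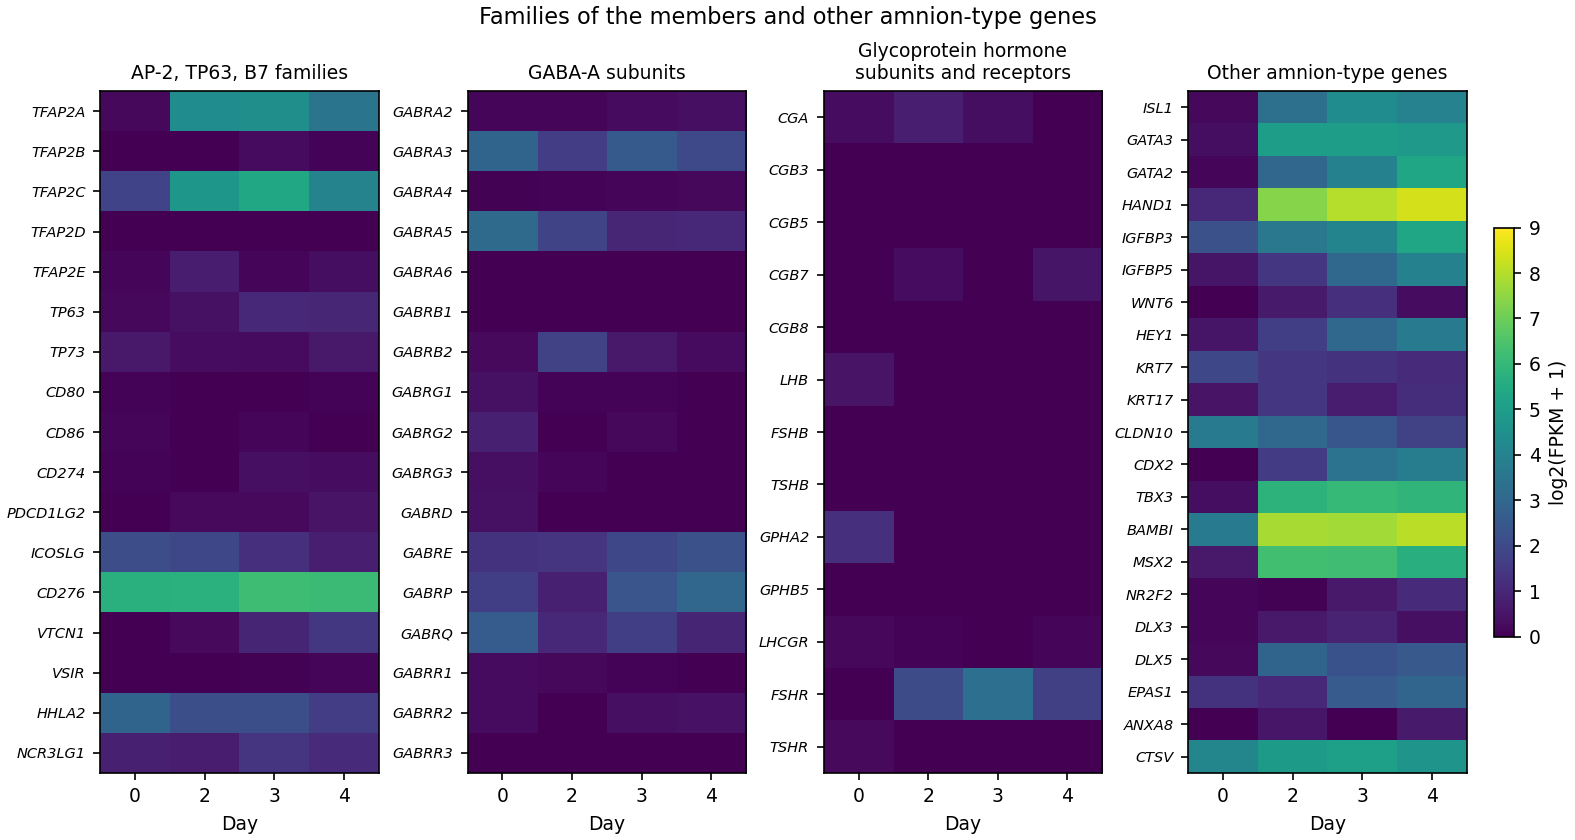
Levels as log2(FPKM + 1) (colour) of genes from the members' families and of 21 other amnion-type genes (rows) by day (columns), 1 library per day. TFAP2A and TFAP2C are the visible rows of the AP-2 family, GABRP is brightest at day 4, FSHR is the visible row of its panel, and HAND1, TBX3, BAMBI and MSX2 are bright from day 2 on.

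The other genes listed as amnion-type behaved more like the AP-2 factors at day 2 than like GABRP. Of 21, 18 reached 1 CPM in either library at days 0 and 2. Of all 21, 9 were called higher and none lower, beside 4.63% and 1.93% of all genes. The median difference was 2.13 among the 18. GATA3 went from 0.776 CPM at day 0 to 98.3, 98.0 and 85.4 CPM. HAND1 went from 1.75 to 289, 443 and 594 CPM, TBX3 from 1.16 to 272, 314 and 281 CPM, and MSX2 from 1.16 to 174, 164 and 108 CPM. ISL1, named after its values were seen, went from 0.388 to 25.3, 54.9 and 40.7 CPM. As background, these 5 are also genes of lateral plate mesoderm. From day 2 to day 4, 6 of the 21 were called higher and none lower, beside 2.32% and 1.4% of all genes. The median was 0.28 among 20. The 6 were GATA2, IGFBP5, HEY1, CDX2, NR2F2 and EPAS1, named after their values were seen. Over the same step 10 of the 12 endothelial genes were called higher and none lower. The part of endothelial cells in these 6 calls was not tested. The epithelial genes of the amnion-type list did not share a course. KRT7 measured 4.85, 2.94, 2.51 and 2.00 CPM, and the claudin gene CLDN10 29.1, 18.4, 10.6 and 5.82 CPM. The keratin gene KRT17 measured 0.582, 2.75, 0.966 and 2.00 CPM and was 4.72-fold higher at day 2 than at day 0 (1.32 to 25.6). These epithelial genes were named after their values were seen.

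Of 27 trophoblast genes, 10 were at 0 in every library and 9 reached 1 CPM in any. The 10 were CGB3, CGB5, CGB8, PSG1, PSG3, PSG4, PSG5, XAGE2, SIGLEC6 and INSL4, named after their values were seen. From day 0 to day 2 the median over 9 genes was -0.11, with 1 called higher and none lower. From day 2 to day 4 it was -0.67 over 8, with 1 called higher and none lower. All genes had shares of 4.63% higher and 1.93% lower in the first step, and 2.32% and 1.4% in the second. The aminopeptidase gene ENPEP was 36.0-fold higher at day 2 than at day 0 (22.9 to 60.2) and 3.84-fold lower at day 4 than at day 2 (3.27 to 4.54). The endocytic receptor gene LRP2 was 5.11-fold higher at day 4 than at day 2 (3.85 to 6.88). ERVW-1, the envelope gene of an endogenous retrovirus used in trophoblast fusion, went from 39.6 CPM at day 0 to 5.63 CPM at day 4, and PAPPA2 reached 2.35 CPM at day 2. VGLL1, also named after its values were seen, had no counts before day 4 and 3 then.

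Of 21 surface ectoderm and epidermal genes, the tissue in which TP63 acts, 17 reached 1 CPM. From day 0 to day 2, 2 were called higher and none lower, beside 4.63% and 1.93% of all genes, with a median of 0.09. From day 2 to day 4 none was called, beside 2.32% higher and 1.4% lower, with a median of -0.44. KRT5 and KRT14, keratins of basal epidermis, had at most 1 and 3 counts, and KRT15 at most 3. They were named after their values were seen. GRHL3, a factor of surface epithelium, measured 5.24, 25.1, 28.2 and 6.18 CPM, high on the same days as TFAP2A. It was 4.06-fold lower at day 4 than at day 2 (2.77 to 6.12). KRT8, at 342 and 2636 CPM on days 0 and 4, and KRT19, at 51.4 and 336 CPM, were higher later. KRT8 has many pseudogenes that can share its reads. CDH1, the epithelial cadherin gene, measured 464, 300.1, 166 and 89.6 CPM.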

How the data were processed

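RNA libraries, prepared per the labels' protocols with a TruSeq RNA kit from Trizol extracts, were deposited as 1 table per day. Per the submitters' processing notes the tools were BWA, Bowtie and RSEM on hg19. The sources used here give neither their versions nor their roles, and the series' design text also names TopHat and Cufflinks. Per the file headers the authors gave each Entrez gene an expected (estimated) count, a transcript length and FPKM. Expected counts, which summed to 5.04 to 5.49 M a library, were rounded to whole numbers (69.4 to 70.1% were whole as deposited, with a tolerance of 0) and scaled to CPM with TMM factors of 0.981 to 1.02 from edgeR 4.0.16 in R 4.3.3. Intervals and differences were computed with scipy 1.17.1, pandas 2.3.3 and numpy 2.4.6, and plots drawn with matplotlib 3.10.9, under Python 3.11.15. The deposited FPKM served for levels between genes and for 1 alternative. Symbols came from RefSeq tables, in which 19273 of 19390 IDs matched.

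With 1 library a day, a rule of size stood in for tests: a difference of 2 in log2(CPM + 1) at a minimum of 1 CPM. CPM have exact Poisson intervals and ratios exact conditional binomial ones, at 95%. Where 1 library had 0 counts, the fold is given against a floor of 3 counts there. Such a fold leaves out the counting error of the other library and is not a 95% bound. The rule was tested on simulated data. The members, 17 gene lists and rules were chosen with earlier results of these data known. Named were all members, up to 4 genes of each list with the largest difference in day 2 over day 0 or day 4 over day 2, the families of the AP-2, TP63 and glycoprotein hormone genes, and the 3 nearest profiles. A few genes named by this rule are not reported here. For the context lists (pluripotency, streak, endothelium, blood and endoderm) little more than summed levels is given. The median-of-ratios, unscaled total, filter, threshold and pseudocount alternatives changed 1 choice at a time. The FPKM alternative put the minimum and the pseudocount in FPKM too, so it changed them together with the unit.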

Additional observations from a re-analysis of the deposited data

How the results depend on the processing

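No paired analysis was possible because each day has 1 library. The number of members called at 4-fold kept within 1.5 times under median-of-ratios factors, unscaled totals, no filter and a minimum of 5 CPM, in all 5 comparisons. VTCN1 was no longer called for day 4 over day 0 with a minimum of 5 CPM, a pseudocount of 5 CPM or on FPKM, which left 2 called. For day 3 over day 2, where 1 was called, it became 3 with a pseudocount of 0.1 CPM, 0 with 5 CPM, 0 on the deposited FPKM and 4 at a 2-fold threshold. For day 4 over day 2, where 1 was called, it became 2 with a pseudocount of 0.1, 0 with 5 and 3 at 2-fold. At 2-fold it became 2 for day 4 over day 3, from 0, and 5 for day 4 over day 0, from 3. The 26 ratios of members in pairs of libraries with counts stayed inside their counting intervals under both other scalings and on FPKM, with shifts of at most 0.22 on the log2 scale.

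Counts over all genes, higher and lower together, were 1009, 264, 93, 572 and 1519 for day 2 over 0, 3 over 2, 4 over 3, 4 over 2 and 4 over 0. They became 1763, 711, 471, 1174 and 2422 with a pseudocount of 0.1 CPM, 474, 75, 18, 224 and 727 with 5 CPM, and 3333, 1425, 1108, 2431 and 4374 at 2-fold. On FPKM, day 4 over day 3 had 77 higher and 83 lower (160 in all) against 58 and 35, and day 3 over day 2 had 154 and 82 against 202 and 62. TFAP2B, VTCN1, CGA and TP63 rest on at most 25 counts in a library, which limits what can be said of them.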

Other observations

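TFAP2C is also a gene of primordial germ cells, and TFAP2A and TFAP2B are genes of the neural crest, so both lists were read beside the members. Of 13 germ cell genes, 3 were called higher at day 2 than at day 0 and 1 lower, beside 4.63% and 1.93% of all genes. The median was -0.27 over 12. SOX17 measured 0.194, 90.4, 89.1 and 55.3 CPM at days 0, 2, 3 and 4, and PRDM1, a repressor that acts in the specification of germ cells, 3.49, 103, 109 and 50.9 CPM. NANOS3 was at 0 counts at day 0 and at 5.30, 6.96 and 7.27 CPM after it. PRDM14, the 1 called lower, stood at 86.9 CPM in undifferentiated cells and 2.16 CPM at day 2. It is also on the list of pluripotency genes. DDX4, a gene of later germ cells, had 2 counts at day 4 and none before, and DAZL 11 counts at day 0 and none after; both were named after their values were seen. From day 2 to day 4 no germ cell gene was called, beside 2.32% of all genes higher and 1.4% lower. The median was 0.06. SOX17 is also an endoderm and endothelial gene. Whether any of these calls came from germ cells was not tested.

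Of 13 neural crest and plate border genes, 5 were called higher at day 2 than at day 0 and 1 lower. All genes had shares of 4.63% and 1.93%, and the median of the list was 2.15 over 9. From day 2 to day 4 none was called, beside 2.32% higher and 1.4% lower, with a median of 0.50. MSX1 measured 0.388, 42.8, 130 and 105 CPM, SNAI2 3.68, 39.8, 106 and 132 CPM, and DLX5 0.194, 9.22, 5.41 and 6.54 CPM. TWIST1 and DLX6, named after their values were seen, were the others of the 5 called higher. DLX5 is also on the amnion-type list. FOXD3, the 1 called lower, stood at 14.5 CPM in undifferentiated cells and had 0 counts in the 3 later libraries. SOX10, named after its values were seen, stayed between 1.27 and 3.14 CPM. Whether any of these calls came from neural crest cells was not tested.

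The deposited length, which can change with the transcripts a gene's reads are given to, was 3150, 3367, 3494 and 3474 bp for TFAP2A at days 0, 2, 3 and 4. For TP63 it was 4697 bp at day 0 and 4603 bp in each later library, and for VTCN1 2304 bp at days 2 and 3 and 2407 bp at day 4. For TFAP2C it was 2895 bp in all 4. At day 0 these values rest on 2 counts for TFAP2A and 3 for TP63.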
